A study of Mus musculus with 7 samples.

Results

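The transcripts described here are those of 7 anterior pituitary genes, the growth hormone gene Gh, the prolactin gene Prl, the hormone subunit genes Tshb, Cga, Lhb and Fshb, and the transcription factor gene Pou1f1, in RNA labelled as hypothalamus. The genes were listed by name and looked up among the array probes, and the list was selected on the detection and signal of their probes in the 7 arrays, known from an earlier analysis, so those signals are given as a description and support no claim. Of the 7 genes, 6 had a probe, 1 each, and Pou1f1 was not among the genes named for the 25697 probes. At least 1 array detected 5 of the genes, and 4 (Gh, Prl, Tshb and Cga) passed the detection filter among 15284 tested probes.

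All 7 arrays came from male mice, 13 weeks old, with a C57BL/6 background and a genotype label of BGN knockout, which both groups share. The gene encodes biglycan, a matrix proteoglycan. The DHA group (5 arrays, replicates 1 to 5) was fed a diet enriched with docosahexaenoic acid (DHA), an omega-3 fatty acid of brain membranes, over roughly 6 weeks, in which flaxseed oil made up 0.5% and DHA capsule oil 1.2%. The untreated group (2 arrays, replicates 1 and 3) is labelled as having had no treatment, and the submitters excluded 1 further untreated sample as an outlier. No group received flaxseed oil alone. The series text counts 3 untreated mice. No label says whether an array holds 1 animal or a pool, so p-values cover only the spread between these arrays.

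The anterior pituitary hangs below the hypothalamus and is a separate gland. Its somatotrophs secrete growth hormone, its lactotrophs prolactin, its thyrotrophs thyrotropin and its gonadotrophs luteinizing and follicle-stimulating hormone. Thyrotropin and both gonadotropins share the alpha subunit encoded by Cga and differ in the beta subunit, encoded by Tshb, Lhb or Fshb. POU1F1 activates Gh, Prl and Tshb in the main lobe of the gland. A thin upper extension, the pars tuberalis, covers the underside of the hypothalamus at the median eminence, and its thyrotrophs also make Tshb and Cga.

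Promoter windows of Tshb, Cga and Prl are shown, because the first 2 were high in the same arrays and Prl followed another order of arrays. They were thus picked on the array signals, and no window was available for Gh. Each line holds the 250 bases before the transcript start used in the RefSeq promoter table (build GRCm38.p6), 5′ to 3′ on the gene's own strand. Capitals mark matches on either strand to ATGNATA (a POU1F1 motif), GATA (the core bound by GATA factors) and TATAAA (the TATA box). Among 32851 windows of this length, 7.92% held ATGNATA, 53.6% GATA and 12.4% TATAAA. The windows lie at chr3:102782715-102782964 on the minus strand for Tshb, inside the annotated span of that gene, at chr4:34893529-34893778 on the plus strand for Cga and at chr13:27057320-27057569 on the plus strand for Prl.
Tshb: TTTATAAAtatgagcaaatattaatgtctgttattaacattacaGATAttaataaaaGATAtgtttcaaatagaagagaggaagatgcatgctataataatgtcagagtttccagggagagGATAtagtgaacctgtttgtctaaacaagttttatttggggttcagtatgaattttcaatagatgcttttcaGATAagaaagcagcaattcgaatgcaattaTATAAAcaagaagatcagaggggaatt
Cga: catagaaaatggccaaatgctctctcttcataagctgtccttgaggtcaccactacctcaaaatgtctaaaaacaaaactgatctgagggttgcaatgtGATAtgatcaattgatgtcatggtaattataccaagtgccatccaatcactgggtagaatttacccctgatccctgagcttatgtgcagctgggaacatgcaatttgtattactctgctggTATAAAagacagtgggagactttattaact
Prl: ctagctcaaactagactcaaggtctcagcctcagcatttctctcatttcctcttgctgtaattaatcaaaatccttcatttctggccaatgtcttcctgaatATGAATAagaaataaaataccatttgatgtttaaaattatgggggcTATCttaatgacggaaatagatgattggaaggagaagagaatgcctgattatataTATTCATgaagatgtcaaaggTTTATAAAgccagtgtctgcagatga

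The Prl window held 2 matches to ATGNATA, at bases -148 to -142 and -47 to -41 from the start, while those of Tshb and Cga held 0. Among the windows not shown, those of Lhb and Fshb also held 0, and a window of Pou1f1 held 1. The Tshb window held 4 matches to GATA, and the Cga and Prl windows 1 each. All 3 held TATAAA close to the start, at -27 to -22 in Tshb, -30 to -25 in Cga and -24 to -19 in Prl. In Tshb and Prl some matches to TATAAA on the 2 strands overlap and appear as 1 run of capitals. These matches describe letters and not binding.

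Tshb and Cga, the subunits that form thyrotropin, were both highest in the same DHA arrays, replicates 3 and 1. The unnormalized signal of Tshb (probe ILMN_1215013) was 1017, 244, 1085, 154 and 150 in DHA replicates 1 to 5, and 130 and 233 in untreated replicates 1 and 3. A probe counts as detected in an array when its detection p, against the negative controls of that array, is under 0.05. Tshb was detected in DHA replicates 1, 2 and 3 and in untreated replicate 3, each with a detection p of 0, and in none of the other 3 arrays. The groups overlapped, since the arrays at background came from both diets.

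Cga (ILMN_2770220) encodes the alpha subunit, and its unnormalized signal was 339, 154, 625, 142 and 149 in DHA replicates 1 to 5, and 130 and 156 in untreated replicates 1 and 3. It was detected in DHA replicates 1 and 3 only, with a detection p of 0 in both. In DHA replicate 2 and untreated replicate 3, where Tshb was detected at a lower signal, Cga was not above background. After background correction and normalization, the log2 signal of Tshb was 9.60 and that of Cga 7.47 in DHA replicate 1, and 9.91 and 8.95 in DHA replicate 3. DHA replicate 3 exceeded the background bound of the 2 DHA arrays without detected Tshb by at least 27.9-fold for Tshb. For Cga it exceeded the bound of the 3 DHA arrays without detected Cga by at least 14.2-fold. Such a bound sets each undetected array to the higher of its own value and its lowest detected signal.

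**Figure D1:**
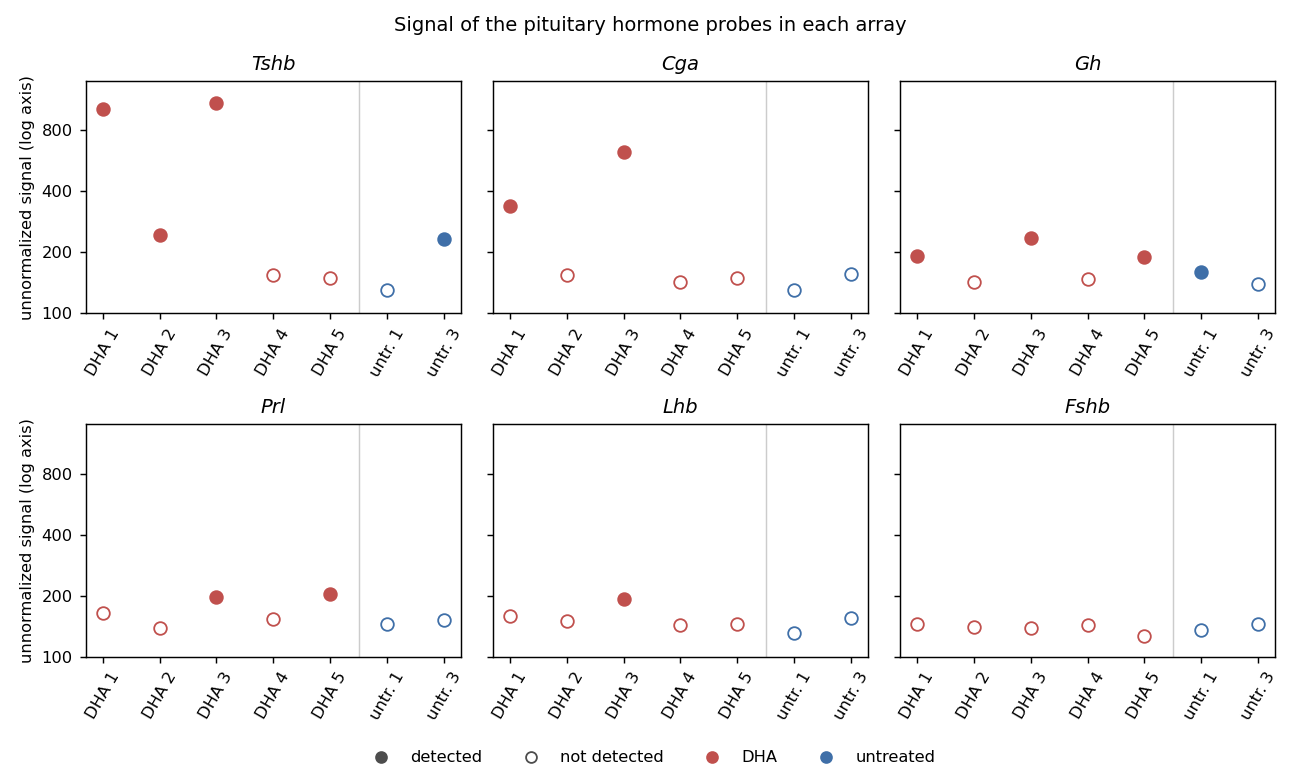
Unnormalized signal (log axis) of the 6 hormone probes in each DHA array (left, red) and each untreated array (right, blue), with filled points where the probe was detected and open points where it was not. Tshb and Cga reached their highest signals in DHA replicates 1 and 3, Prl was detected in DHA replicates 3 and 5, and Fshb was not detected in any array.

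Gh and Prl, the products of somatotrophs and lactotrophs, were closer to background, and both were detected in DHA replicate 5, where neither thyrotropin subunit was. The unnormalized signal of Gh (ILMN_2725322) was 193, 143, 236, 148 and 190 in DHA replicates 1 to 5, and 159 and 140 in untreated replicates 1 and 3. Gh was detected in DHA replicates 1, 3 and 5 (detection p 0.00501, 0 and 0) and, just inside the limit, in untreated replicate 1 (detection p 0.0464). DHA replicate 3 was again the highest. The order of the next arrays depended on the scale, since DHA replicate 1 lay just above DHA replicate 5 before normalization and below it after, at a log2 signal of 5.62 against 5.97.

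Prl (ILMN_2685995) gave 163, 138, 197, 154 and 203 in DHA replicates 1 to 5, and 145 and 151 in untreated replicates 1 and 3. It was detected in DHA replicates 3 and 5 only, with a detection p of 0 in both, and in DHA replicate 1 its detection p was 0.169. In DHA replicate 5 the log2 signal of Prl was 6.25 and that of Gh 5.97, while Tshb (4.70) and Cga (4.68) were undetected there. In DHA replicate 1 it was the other way round for Prl, which was undetected at 4.79 while both thyrotropin subunits were detected. The highest DHA array exceeded the bound of the undetected DHA arrays by at least 2.99-fold for Gh and at least 2.18-fold for Prl.

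**Figure D2:**
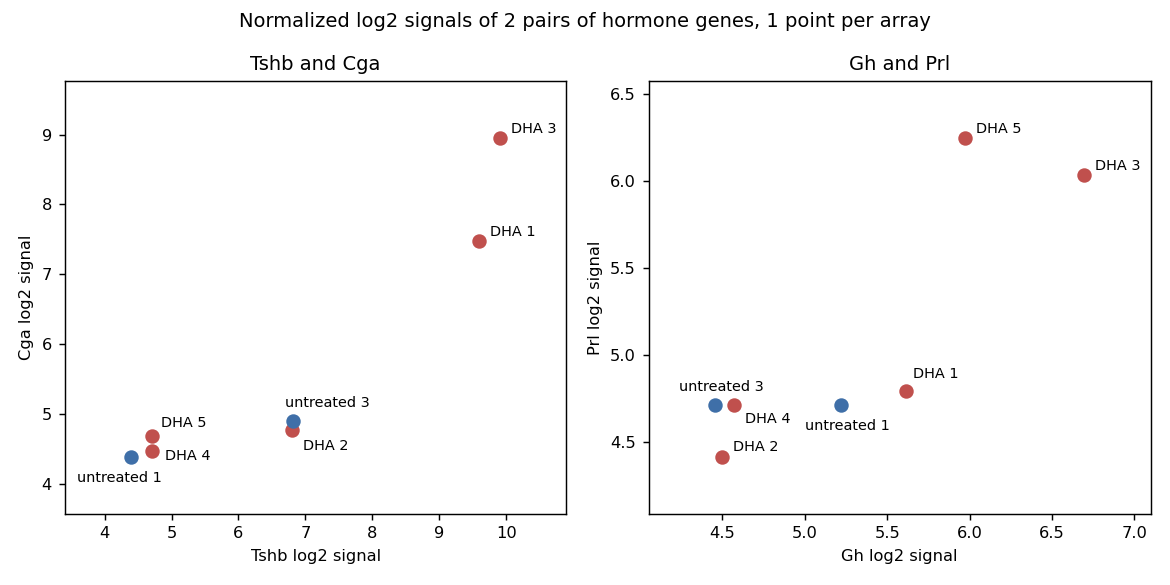
Normalized log2 signals of Cga against Tshb (left) and of Prl against Gh (right), 1 point per array, DHA arrays in red and untreated arrays in blue. DHA replicate 3 is high in both panels, DHA replicate 1 in the left panel for both genes, and DHA replicate 5 in the right panel only.

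The gonadotropin beta subunits were at or near background. Lhb (ILMN_2589011), of luteinizing hormone, gave 159, 150, 192, 144 and 145 in DHA replicates 1 to 5, and 131 and 154 in untreated replicates 1 and 3. Only DHA replicate 3 detected it, with a detection p of 0.00125, and there it exceeded the bound of the other DHA arrays by at least 1.75-fold. Fshb (ILMN_2598788), of follicle-stimulating hormone, was detected in 0 of 7 arrays, with signals of 126 to 145 in DHA arrays and 136 and 145 in untreated arrays. DHA replicate 3 was therefore the only array with 5 hormone genes detected. Of these 5 genes, 4 (Tshb, Cga, Gh and Lhb) had their highest DHA signal in that array, and Prl had its highest in DHA replicate 5. Without DHA replicate 3, 4 genes were still detected in an array, and on normalized values Tshb and Cga were highest in DHA replicate 1 and Gh and Prl in DHA replicate 5.

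The spread among arrays of the same diet was wide beside that of other probes. Between the highest and the lowest DHA array, the log2 signal differed by 5.21 for Tshb, 4.48 for Cga, 2.20 for Gh and 1.83 for Prl. The median over all 15284 tested probes was 0.43. Only 7 probes had a wider range than Tshb, 17 than Cga, 113 than Gh and 163 than Prl. Because these signals belong to the choice of the genes, the ranks are a description. Without background correction, the range was 2.85 for Tshb, 2.15 for Cga, 0.72 for Gh and 0.59 for Prl, since uncorrected background compresses dim signals.

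**Figure D3:**
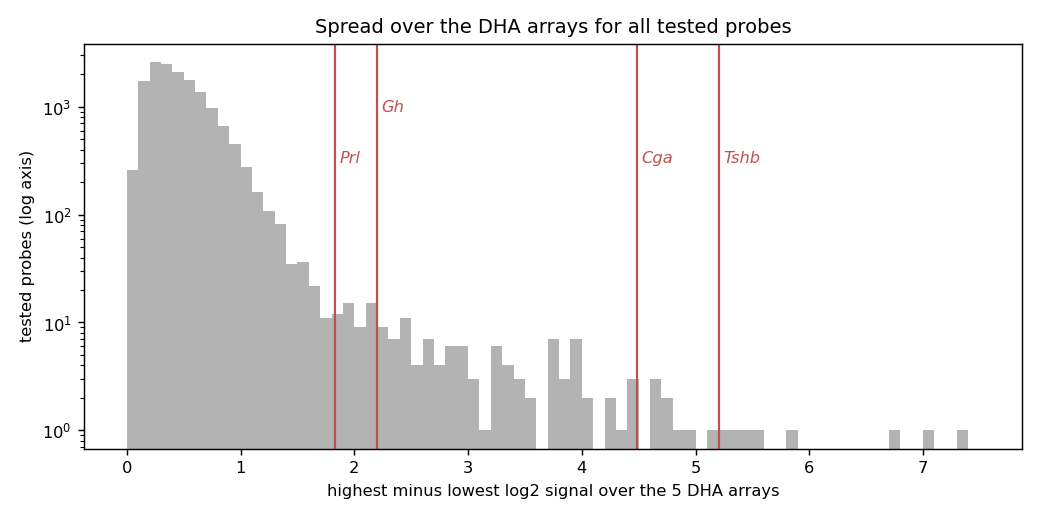
Number of tested probes (log axis) by the difference between their highest and lowest log2 signal over the 5 DHA arrays, with the 4 tested hormone genes as red lines. Tshb at 5.21 and Cga at 4.48 lie in the far right tail, and Gh at 2.20 and Prl at 1.83 at its beginning.

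No hormone gene passed the test between the diets, and the standard errors were close to or above the differences. Tshb averaged 7.15 ± 2.53 log2 in DHA arrays (SD, n = 5), against 4.40 and 6.81 in the untreated arrays, and the difference, DHA minus untreated, was 1.54 (SE 1.60). In the limma fit across all tested probes its adjusted p was 0.766. Cga differed by 1.42 (SE 1.22, limma adjusted p 0.716) and was detected in 2 of the 5 DHA arrays and in neither untreated array. The mean of all DHA arrays was 1.80-fold the background bound of the untreated arrays. That ratio is not a lower limit, because undetected DHA arrays enter the mean at their own values. Gh differed by 0.63 (SE 0.59, limma adjusted p 0.740). Prl differed by 0.53 (SE 0.51, limma adjusted p 0.747). It too was detected in 2 of the 5 DHA arrays and in neither untreated array, and the same ratio was 1.01-fold. In this fit 0 of the 4 tested hormone genes were called, and the share called over all probes was 0%. At an unadjusted p under 0.05 it was 0 of 4, against 10.3% of all probes (1568 of 15284). The groups overlapped for all 4, while 17% of all probes had groups that did not overlap.

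Single arrays set the size of these differences. The Tshb difference was 0.34 without untreated replicate 1, 2.75 without untreated replicate 3, 0.93 without DHA replicate 1 and 0.85 without DHA replicate 3. The Cga difference was 0.70 without DHA replicate 3. The Gh difference was 1.01 without untreated replicate 1, 0.25 without untreated replicate 3 and 0.32 without DHA replicate 3. For Prl it was 0.33 without DHA replicate 3 and 0.28 without DHA replicate 5. None of these fits called a hormone gene.

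Other genes of the pituitary cell types were detected only in part. Of 15 further transcription factors of the gland, 11 had a probe, 5 of these were detected in 0 arrays (Hesx1, Lhx4, Foxl2, Six6 and Neurod4) and 5 were tested. Of those tested, 1 was higher and 4 were lower with DHA, 0 passed, and the median difference was -0.33, against -0.01 over all tested probes. Gata2, which acts with POU1F1 in thyrotrophs, was detected in all 7 arrays and differed by 0.13 (SE 0.26, limma adjusted p 0.878). Its log2 signal was 7.95, 7.28, 8.32, 8.05 and 7.59 in DHA replicates 1 to 5, and 7.77 and 7.63 in untreated replicates 1 and 3. Nr5a1, a factor of gonadotrophs and also of the ventromedial hypothalamus, differed by -0.53 (SE 0.15, limma adjusted p 0.330). Lhx3, needed for formation of the gland, differed by -0.33 (SE 0.13, limma adjusted p 0.464). Nr5a1 was detected in 1 DHA array and 2 untreated arrays, and Lhx3 in 2 DHA arrays and 2 untreated arrays. The differences of Nr5a1 and Lhx3 therefore include undetected values. The other 2 lower factors, Isl1 and Rxrg, were detected in all 7 arrays. Isl1 differed by -0.25 (SE 0.12, limma adjusted p 0.521) and Rxrg by -0.35 (SE 0.17, limma adjusted p 0.534).

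Among 8 genes of corticotrophs and melanotrophs, 7 had a probe and 5 were detected in 0 arrays, among them Tbx19, the factor that defines both cell types. The 2 tested were lower with DHA and 0 passed, with a median difference of -0.07. Pomc, made in these cells but also in neurons of the arcuate nucleus, was detected in all 7 arrays. Its log2 signal was 8.88, 9.60, 9.04, 9.18 and 8.96 in DHA replicates 1 to 5 and 8.99 and 9.49 in untreated replicates 1 and 3, a difference of -0.11 (SE 0.21, limma adjusted p 0.878). Of 8 receptors through which the hypothalamus acts on the gland, Ghrhr, Gnrhr and Sstr2 were detected in 0 arrays, and 0 of the 5 tested passed, 2 higher and 3 lower, with a median difference of -0.06. Trhr, the receptor for thyrotropin-releasing hormone, which brain neurons also carry, was detected in all 7 arrays and differed by 0.10 (SE 0.22, limma adjusted p 0.891).

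Of the 4 pars tuberalis genes listed, 3 were tested, 1 higher and 2 lower with DHA, and 0 passed, with a median difference of -0.01. Mtnr1a, the melatonin receptor of its thyrotrophs, was detected in 1 DHA array and 1 untreated array, with log2 signals of 5.28, 4.80, 5.05, 5.01 and 4.79 in DHA replicates 1 to 5 and 4.95 and 5.34 in untreated replicates 1 and 3. The transcriptional cofactor Eya3 and the granule protein gene Chga, both also expressed in brain, were detected in all 7 arrays. Eya3 differed by 0.10 (SE 0.17) and Chga by -0.01 (SE 0.11), with limma adjusted p of 0.864 and 0.986, and the other 2 probes of Eya3 differed by 0.18 and -0.79. The mean log2 signal of the 3 tested genes was 7.39, 7.30, 7.42, 7.21 and 7.17 in DHA replicates 1 to 5, and 7.28 and 7.37 in untreated replicates 1 and 3, a range of 0.25 among DHA arrays.

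The hypothalamic hormones that drive or restrain the gland varied far less between arrays than Tshb and Cga did. Of the 10 listed, 8 were tested, 4 higher and 4 lower with DHA, and 0 passed, with a median difference of 0.02. Ghrh, which stimulates growth hormone release, was 9.04, 9.50, 9.06, 9.34 and 8.92 log2 in DHA replicates 1 to 5 and 9.41 and 9.65 in untreated replicates 1 and 3 (difference -0.36, SE 0.17, limma adjusted p 0.522). Sst, encoding somatostatin, which restrains it, differed by 0.12 (SE 0.10, limma adjusted p 0.713). Trh, which stimulates thyrotropin release, differed by -0.01 (SE 0.13, limma adjusted p 0.984). Th, the enzyme gene for dopamine, which inhibits prolactin release, was 9.87 in DHA replicate 3 and 8.58 to 8.98 in the other DHA arrays, against 8.43 and 9.15 in the untreated arrays (difference 0.17, SE 0.36, limma adjusted p 0.890). Tac2, encoding neurokinin B of arcuate neurons, had the smallest p of the list and differed by -0.61 (SE 0.11, limma adjusted p 0.167).

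**Figure D4:**
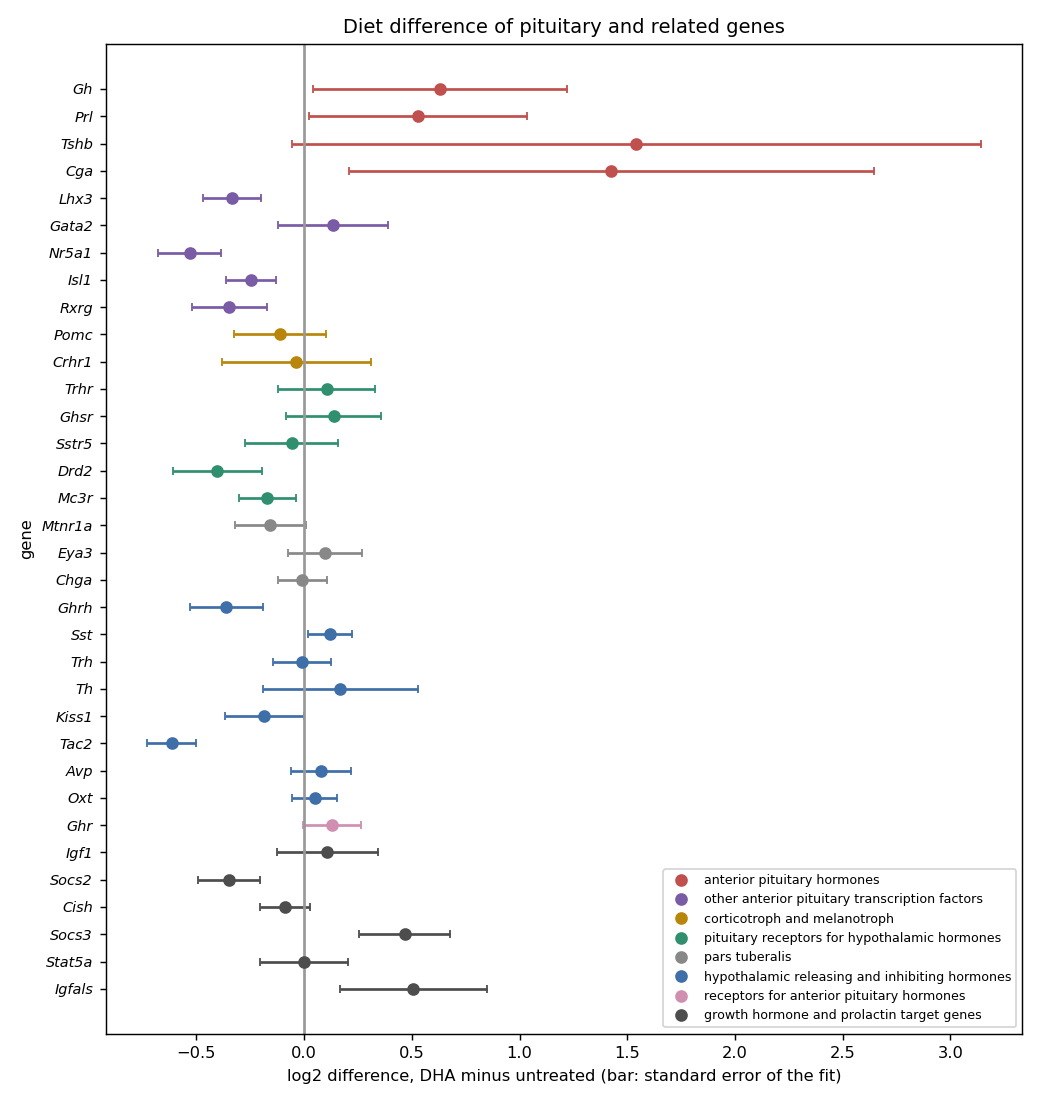
Diet difference on the log2 scale (DHA minus untreated, bars show the SE of the limma fit) for the tested genes of the pituitary and related lists. The widest bars are those of Tshb (SE 1.60) and Cga (SE 1.22), and 0 of the genes shown passed an adjusted p of 0.05.

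Genes on the receiving side of the hormones were also examined. Ghr, the growth hormone receptor, was detected in all 7 arrays and differed by 0.13 (SE 0.13, limma adjusted p 0.763), and Tshr and Fshr were detected in 0 arrays. Of 7 genes that growth hormone or prolactin act through or induce in other tissues, 6 were tested, 4 higher and 2 lower, and 0 passed, with a median difference of 0.05. Socs2, a feedback inhibitor of growth hormone signalling, differed by -0.35 (SE 0.15, limma adjusted p 0.475). Socs3, of the same list, went the other way and differed by 0.47 (SE 0.21, limma adjusted p 0.506). Igf1, a growth factor that growth hormone induces in liver, differed by 0.11 (SE 0.24, limma adjusted p 0.893).

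Probes that shared the array pattern of Tshb were counted, with Tshb itself and Cga among them. The counts are a description and cannot show whether the pattern is rare. Of 138 tested probes whose log2 range over the DHA arrays was at least 2, 9 had DHA replicates 1 and 3 as their highest arrays, and in 4 of these the gap to the next array was at least 1 log2. These 4 were Tshb, Cga, Gbx2 and Tnnt1, the last 2 named after their values were seen. Gbx2, a homeobox factor of the developing thalamus, was 9.41, 7.20, 9.24, 7.91 and 7.77 in DHA replicates 1 to 5, and 8.92 and 8.30 in untreated replicates 1 and 3. Tnnt1, a troponin gene, was 8.52, 6.95, 9.21, 6.97 and 7.31 in DHA replicates 1 to 5, and 8.45 and 7.68 in untreated replicates 1 and 3. Untreated replicate 1 was thus high for both, although Tshb was undetected there.

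The hypothalamus label was checked against its markers. Of 12 listed genes, 9 were tested and all 9 were detected in all 7 arrays, while Sim1 and Otp were detected in 0 arrays. The mean log2 signal of the 9 tested genes was 11.95 to 12.21 in DHA arrays and 11.95 and 12.20 in untreated arrays. Markers of several other tissues differed more between arrays. The mean over 6 tested liver genes was 10.09, 8.67, 6.51, 9.30 and 7.48 in DHA replicates 1 to 5, and 7.56 and 6.76 in untreated replicates 1 and 3, while Alb was detected in 0 arrays. The DHA arrays with the highest Tshb, replicates 1 and 3, thus had the highest and the lowest liver mean of the DHA group. The mean over 4 red blood cell genes was 9.17, 9.56, 8.40, 8.95 and 8.43 in DHA replicates 1 to 5, and 9.37 and 9.28 in untreated replicates 1 and 3, lowest in the 2 arrays with detected Prl. The mean over 13 meningeal and fibroblast genes was 8.51, 9.19, 9.25, 9.14 and 9.02 in DHA replicates 1 to 5, and 8.09 and 7.21 in untreated replicates 1 and 3. All 13 were higher with DHA, 0 passed, 11 had an unadjusted limma p under 0.05 (5.18% of all probes did in this direction), and the median difference was 1.40. The list was chosen with earlier results of these data known, so these counts are a description. The mean over 8 striatal genes was 7.96, 8.07, 8.11, 7.93 and 8.10 in DHA replicates 1 to 5, and 8.996 and 8.05 in untreated replicates 1 and 3, so untreated replicate 1 stood above the other 6 arrays. All 8 were lower with DHA and 0 passed, with a median difference of -0.52. The part of these 4 lists in the hormone signals was not tested. In bulk tissue, fewer cells of a type and less RNA per cell cannot be told apart.

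**Figure D5:**
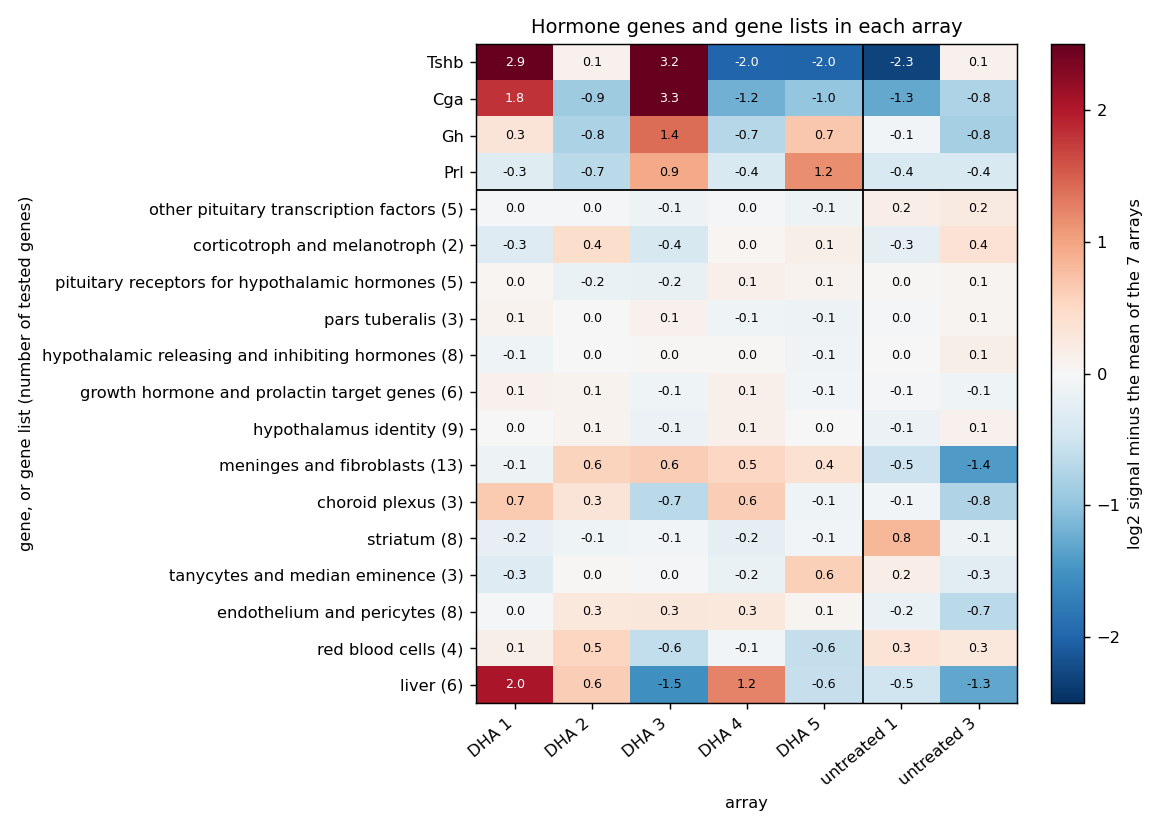
Log2 signal minus the mean of the 7 arrays, with DHA arrays left and untreated arrays right. Above the line are the 4 tested hormone genes. Below it is the mean of each other gene list, with its number of tested genes. The list of receptors for anterior pituitary hormones is left out. Tshb and Cga are high in DHA replicates 1 and 3, where the liver mean is at its highest (10.09) and lowest (6.51) among DHA arrays. Ttr is in both the liver and the choroid plexus list, and Pomc, Avp and Oxt are in 2 lists each. Drd2 is in both the list of pituitary receptors for hypothalamic hormones and the striatum list.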

How the data were processed

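Hypothalamus RNA was measured on 7 Illumina bead arrays. Per the file headers, the authors deposited an unnormalized table with an intensity and a detection p-value for every probe of every array. A deposited table of normalized intensity served as an alternative. Per the submitters' processing notes, R 2.15.0 and lumi 2.10.0 were used. The normalization method, scanner and slides are not stated. The unnormalized table has 2 per-sample columns that match no sample and were not used. Median signals were 174.5 to 189.5 in DHA arrays and 167.4 and 173.2 in untreated arrays, and precision is limited by having 7 arrays.

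Signals were background-corrected by normexp from the detection p-values (offset 16), quantile normalized and log2 transformed with limma 3.58.1 in R 4.3.3. The offset and normalization shrink differences of dim probes. Probes that 2 or more arrays detected at p under 0.05 entered the test with lmFit and eBayes, two-sided, Benjamini-Hochberg adjusted over 15284 probes at a threshold of 0.05, and the fit was tested on simulated data. Of 25697 probes, 23978 had 1 symbol, 0 several and 1719 none, from the platform annotation; 23962 gene identifiers were found in the mouse gene table. The brightest probe stands for a gene. Promoter windows were found for 6 of the 7 genes, all but Gh.

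The members and gene lists were chosen with earlier results of these data known. Named are all members, fixed pituitary and releasing hormone genes, and up to 4 genes per list taken from those with the smallest p. Gata2 and Igf1 are named outside this rule, and not every gene that the rule allows is named. A rule to name genes with a pattern like Gh gave none, because no hormone probe was detected in all 7 arrays; the probes set beside Tshb replace it and were chosen after seeing the data. Gnrh1 was not among the named probes.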

Additional observations from a re-analysis of the deposited data

Results flagged for a closer look

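Within the DHA group, 30 sets of 5 values were checked with Dixon's test for a sample far from the others, and 3 passed its 95% critical value. Chance flags about 1 in 20 such sets. Lhb stood apart in DHA replicate 3, where its log2 signal was 5.93 and the next highest DHA array had 4.67 (gap over range 0.876), and the other 4 DHA arrays did not detect it, so their values have no order. Fshb stood apart in DHA replicate 5, at 4.30 with the nearest array at 4.43 (gap over range 0.730), although it was not detected in any array, so these values have no order either. The signals of Lhb and Fshb also belong to the choice of the genes, so both are given as a description. Sst stood apart in DHA replicate 3, at 13.05 with the nearest array at 13.23 (gap over range 0.745).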

How the results depend on the processing

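With no probe past the threshold in the main setting, 12 probes passed on the deposited normalized values, 12 without background correction, 1 (Rapgefl1) with a normexp offset of 50 and 52 when eBayes used an intensity trend with robust variances, and 0 hormone probes were among them. Leaving out each array in turn gave 0 to 3 probes, the 3 (Parp2, Apex1 and 1700123O20Rik) without untreated replicate 3. These 4 genes are named after their values were seen, and the cause was not tested. Counting Tshb itself, 4 of 5 detected hormone genes were highest in the same DHA array as Tshb under all value settings. When 1 array was left out, this count, Tshb included, was 2 to 5. It was lowest without DHA replicate 3, at 2 of 4 genes. Every fitted difference of the 4 tested hormone genes stayed above 0 under the alternatives run, with limma adjusted p from 0.610 to 0.981. Without background correction the Tshb difference was 0.96, that of Cga 0.65, that of Gh 0.20 and that of Prl 0.14. With the detection p required under 0.01 in all 7 arrays no hormone probe remained to be tested. Array titles share the numbers 1 and 3 between diets, and the deviations of same-numbered arrays from their group means correlated across probes at 0.00336 and 0.0339. With 2 untreated arrays, their deviations mirror each other, so the 2 correlations are not independent. They cannot decide whether same-numbered arrays share more than a number. With the replicate number as a block, 0 probes passed and the differences were 4.15 for Tshb, 3.57 for Cga, 1.32 for Gh and 0.70 for Prl (limma adjusted p 0.623 to 0.639). Replicate numbers 2, 4 and 5 occur only with DHA, so these block differences rest on replicates 1 and 3 of each diet. DHA replicates 1 and 3 were the DHA arrays with the highest Tshb and Cga, which enlarges the differences of both genes in this fit. Signal over background limits Gh, Prl and Lhb, whose highest unnormalized signals were 236, 203 and 192.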
